A study of Mus musculus with 16 samples.

Results

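The platelet-derived growth factor (PDGF) ligands and receptors were taken as 7 genes by their symbols: the ligands Pdgfa, Pdgfb, Pdgfc and Pdgfd, and the receptors Pdgfra, Pdgfrb and Pdgfrl. They are 7 of the 19707 genes listed in at least 1 of 3 deposited tables of normalized counts. The table of TCF21 gain and the table of Tcf21 loss under infusion list 7 of them, and the table of Tcf21 loss without injury lists 6, with Pdgfb missing. RNA came from mouse cardiac fibroblasts sorted by flow cytometry, in 16 libraries, from mice aged 8 to 12 weeks that all carried a Rosa26 reporter which makes EGFP after Cre has acted. Tcf21-MerCreMer:Tcf21-fl mice lost Tcf21, a transcription factor of the fibroblast lineage, after tamoxifen, and Tcf21-MerCreMer mice given tamoxifen were their controls. There were 3 deleted and 3 control libraries from uninjured hearts, taken 2 weeks after tamoxifen. There were 2 deleted and 3 control libraries from hearts of mice given tamoxifen and then infused for 1 week with angiotensin II and phenylephrine, which drive fibrosis. In the gain arm, 2 libraries came from Pdgfra-creERT:Col1a1-TCF21 mice, which express TCF21 from a transgene after tamoxifen, and 3 came from Pdgfra-creERT controls, all infused for 1 week in the same way. In that arm the Cre of both groups is driven by Pdgfra, so the level of Pdgfra was measured in cells in which this gene also drives the recombinase, and the labels do not say whether the Cre allele replaces a copy of Pdgfra.

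PDGF ligands are secreted as dimers that bring together tyrosine kinase receptors on mesenchymal cells and so drive their growth and migration. PDGF-A and PDGF-C act mainly through the alpha receptor, which marks fibroblasts in the heart, whereas PDGF-B and PDGF-D act mainly through the beta receptor, which is high on pericytes and vascular smooth muscle. PDGF-C and PDGF-D are secreted with an inhibitory CUB domain that a protease must remove. Pdgfrl encodes a PDGF receptor-like protein that lacks the kinase part of the receptors. In bulk samples a lower share of cells that make a transcript and less RNA per cell cannot be told apart.

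TCF21 gain came with less RNA of the ligand genes Pdgfa and Pdgfc and of Pdgfrl, and these 3 of 7 members fell past the threshold (limma, Benjamini-Hochberg adjusted p below 0.05 over all 15369 genes tested). Pdgfa was 2.31-fold, Pdgfc 2.68-fold and Pdgfrl 1.68-fold lower in gain libraries than in their controls. Of all genes tested there, 2.57% fell, 1.57% rose and 4.14% were called in either direction. None of the 6 members tested passed in either loss comparison. Under infusion, however, the estimated fold of deleted over control was 1.85 for Pdgfa and 2.26 for Pdgfc, with both deleted libraries above all controls, without passing. In that comparison 17.3% of all genes lay above control without overlap. The gain effect was lower than the loss effect for Pdgfa, Pdgfc and Pdgfrl when the difference of the effects was tested directly. The arms of that test differ in Cre line as well. Pdgfra, the fibroblast receptor, passed in no comparison.

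The 250 bases upstream of annotated starts are shown for Pdgfa and Pdgfc, the ligand genes that fell together, and for Pdgfra, which did not (RefSeq, GRCm38.p6, read 5′ to 3′ on the strand of the gene). Pdgfrl, which also fell, had no window here, nor did Pdgfb and Pdgfrb. Capitals mark each match to CANNTG, the E-box, the kind of site that basic helix-loop-helix factors such as TCF21 bind.
Pdgfa, chr5:138994945-138995194, minus strand: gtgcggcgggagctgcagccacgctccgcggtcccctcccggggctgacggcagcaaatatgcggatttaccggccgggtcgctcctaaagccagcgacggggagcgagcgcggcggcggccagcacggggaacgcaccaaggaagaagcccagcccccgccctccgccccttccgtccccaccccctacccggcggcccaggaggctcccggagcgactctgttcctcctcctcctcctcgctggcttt
Pdgfa, downstream start, chr5:138994282-138994531, minus strand: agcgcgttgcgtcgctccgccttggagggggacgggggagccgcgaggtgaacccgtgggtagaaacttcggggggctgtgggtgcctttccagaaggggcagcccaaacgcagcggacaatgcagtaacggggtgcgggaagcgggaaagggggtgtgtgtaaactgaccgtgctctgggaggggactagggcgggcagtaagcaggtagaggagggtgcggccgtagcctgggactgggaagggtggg
Pdgfc, chr3:81036166-81036415, plus strand: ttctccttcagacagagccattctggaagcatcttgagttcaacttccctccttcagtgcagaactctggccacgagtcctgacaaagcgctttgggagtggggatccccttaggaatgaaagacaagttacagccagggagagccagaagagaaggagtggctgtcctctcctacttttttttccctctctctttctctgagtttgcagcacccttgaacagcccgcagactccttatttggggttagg
Pdgfra, chr5:75152001-75152250, plus strand: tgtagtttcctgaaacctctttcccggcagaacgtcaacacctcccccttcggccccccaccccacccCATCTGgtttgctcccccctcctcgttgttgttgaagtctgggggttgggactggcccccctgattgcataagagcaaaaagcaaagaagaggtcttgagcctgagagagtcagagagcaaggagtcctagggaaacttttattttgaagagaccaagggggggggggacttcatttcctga
CANNTG reads the same on both strands. It occurred 1 time in the Pdgfra window, as CATCTG starting 182 bases upstream of the start, and 0 times in both Pdgfa windows, in the Pdgfc window and in the Pdgfd window, which is not shown. Over 32851 windows of the same length it occurred in 66.2%, and CAGCTG, 1 of the forms that CANNTG covers, occurred in 13.001%. The matches describe these letters and say nothing of binding.

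The cells were checked by their markers. All 10 fibroblast markers were listed in every group, with summed levels of 3004114 to 4689684 normalized counts per library, against 4951 to 17499 for the 11 mural markers and 425 to 4609 for the listed myeloid markers. The endothelial receptor Tek carried most of the summed endothelial level (2811 to 16272.5), while Cdh5, which defines endothelium, reached at most 21.0 and was at 0 in all uninjured deleted libraries. Tcf21 fell 5.61-fold after deletion without injury (limma adjusted p = 4.22e-05) and 8.98-fold with infusion (limma adjusted p = 0.00494), and rose 2.44-fold with gain (limma adjusted p = 0.00446). The labels do not tell separate animals from repeat libraries of the same cells, so every p-value refers to the scatter among libraries, which may be technical.

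Set against transcript length, the receptors stood far above the ligands in every group. Levels were divided by the length of the longest coding transcript (GENCODE vM21). In uninjured control libraries the order of levels was Pdgfra (7788 ± 478 normalized counts per kb, SD, n = 3), Pdgfrb (4032 ± 218), Pdgfrl (2867 ± 109), Pdgfd (441 ± 49.3), Pdgfa (75.0 ± 14.8) and Pdgfc (5.48 ± 1.23), and no neighbours in that order overlapped. In uninjured deleted libraries the order was the same, but Pdgfrb and Pdgfrl overlapped. With infusion the order of the receptors was turned round in all 4 groups, with Pdgfrl first, Pdgfrb next and Pdgfra last. In infused control libraries of the loss arm these were 6200 ± 857, 4357 ± 278 and 2879 ± 926 normalized counts per kb (SD, n = 3). Pdgfrl and Pdgfrb overlapped in gain libraries. Pdgfd led the ligands in every group and Pdgfb, where listed, came last.

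**Figure D1:**
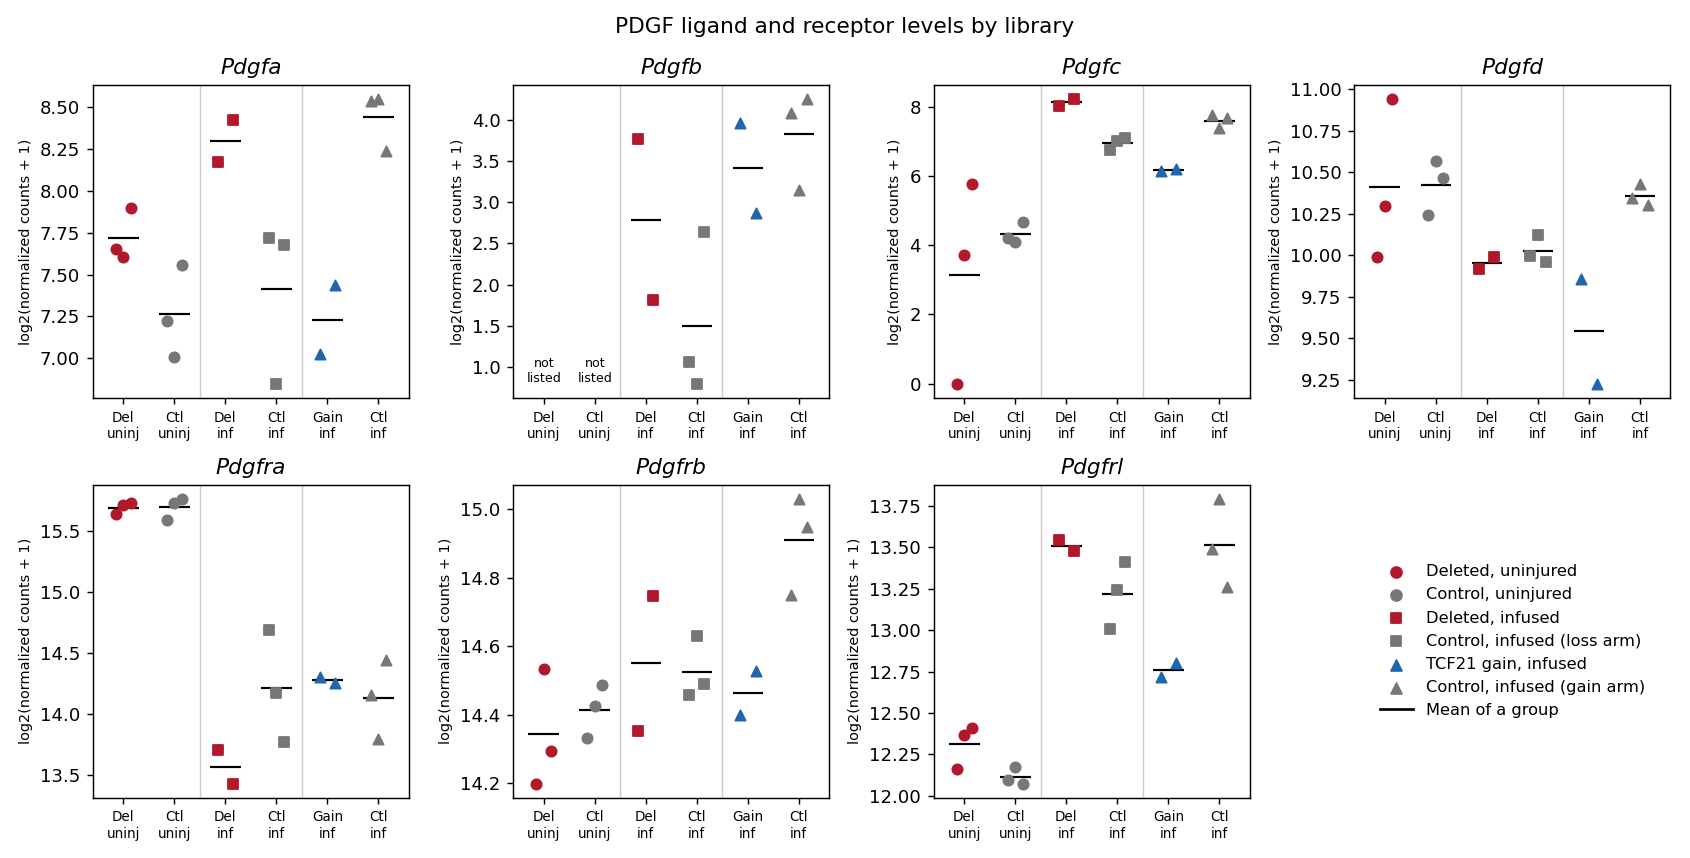
Normalized counts of the 7 PDGF genes, as log2(value + 1) on the vertical axis of each panel, in the 16 libraries (1 point each, line at the group mean; Del, deleted; Ctl, control; uninj, uninjured; inf, infused). Pdgfa, Pdgfc and Pdgfrl lie lower in both gain libraries than in the 3 gain controls, and Pdgfb is not listed for uninjured libraries.

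Among the ligands, Pdgfa (ENSMUSG00000025856, chromosome 5, 138976014 to 138997370, minus strand, GRCm38) encodes the A chain. It had 129 and 173 normalized counts in gain libraries, against 369.8, 373 and 301 in gain controls. Both gain libraries lay below all controls, and Pdgfa fell (log2 fold change -1.21, SE 0.203, 95% interval -1.68 to -0.73, limma adjusted p = 0.0235). With infusion and Tcf21 deleted its values lay on the other side of the controls, at 287 and 343 normalized counts in deleted libraries and 114, 204 and 209 in controls. Deleted libraries lay above all controls, but the change did not pass (log2 fold change 0.88, 95% interval 0.19 to 1.58, limma adjusted p = 0.228). In uninjured hearts Pdgfa had 199.9, 193.8 and 238 normalized counts in deleted libraries, against 148, 128 and 188 in controls. The groups did not overlap there either, but the change did not pass (log2 fold change 0.46, 95% interval -0.051 to 0.96, limma adjusted p = 0.281).

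Pdgfc (ENSMUSG00000028019, chromosome 3, 81036416 to 81214040, plus strand, GRCm38) encodes PDGF-C, a ligand of the alpha receptor known for its part in tissue fibrosis. It held 70.05 and 72.4 normalized counts in gain libraries, against 214, 164 and 203 in gain controls. The gain libraries were close to each other and below all controls, and Pdgfc fell (log2 fold change -1.42, SE 0.224, 95% interval -1.95 to -0.90, limma adjusted p = 0.0195). In infused hearts it held 259 and 296 normalized counts in deleted libraries and 106, 126 and 136 in controls. The deleted libraries were both well above the controls, and the change missed the threshold (log2 fold change 1.17, SE 0.189, 95% interval 0.72 to 1.62, limma adjusted p = 0.0529). It passed when genes of low level were kept in the test (limma adjusted p = 0.0466), but in 0 of 5 fits with a library left out (0.0576 to 0.374), and neither without the variance trend (0.0955) nor with all 6 groups in one fit (0.611). In uninjured hearts Pdgfc was low, listed at 0, 12.1 and 52.9 normalized counts in deleted libraries and at 17.5, 16.1 and 24.2 in controls. The deleted libraries there enclosed the controls on both sides, and the log2 fold change was -1.17 with a 95% interval of -4.02 to 1.69 (limma adjusted p = 0.636).

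Pdgfd (ENSMUSG00000032006, chromosome 9, 6168584 to 6378850, plus strand, GRCm38), which encodes a ligand of the beta receptor, was the most abundant ligand transcript. It held 926 and 598 normalized counts in gain libraries, against 1298, 1375 and 1262 in gain controls. Both gain libraries were below all controls and differed from each other, and the change missed the threshold (log2 fold change -0.82, SE 0.179, 95% interval -1.24 to -0.40, limma adjusted p = 0.0538). The size of the change depended on the gain library, with a log2 fold change of -1.13 without gain library 1 (limma adjusted p = 0.0279) and -0.50 without gain library 2 (limma adjusted p = 0.190). It passed in 1 of 5 fits with a library left out (limma adjusted p 0.0279 to 0.190), passed after rescaling to equal upper quartiles (0.0473) and did not pass without the variance trend (0.177). It did not pass in either loss comparison. Pdgfd held 965 and 1013 normalized counts in infused deleted libraries, against 1020.2, 1113 and 995 in their controls. In uninjured hearts it held 1017, 1255 and 1963 normalized counts in deleted libraries and 1212, 1517 and 1409 in controls, with groups that overlapped. The log2 fold change was -0.075 with infusion (95% interval -0.31 to 0.16, limma adjusted p = 0.747) and -0.016 without (95% interval -0.51 to 0.47, limma adjusted p = 0.977).

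Pdgfb (ENSMUSG00000000489, chromosome 15, 79995874 to 80014977, minus strand, GRCm38), a ligand that endothelial cells and platelets are known to make, was close to absent. It held 14.6 and 6.30 normalized counts in gain libraries and 15.9, 7.85 and 18.1 in gain controls, with overlap (log2 fold change -0.41, 95% interval -1.88 to 1.06, limma adjusted p = 0.772). In infused libraries of the loss arm it held 12.6 and 2.50 normalized counts in deleted libraries and 1.08, 0.73 and 5.22 in controls, and its mean was too low for the test. Of 7 platelet and erythroid markers tested there 5 were above control, 4 without overlap, and 1 rose, where 17.3% and 0.324% of all genes did. The haemoglobin gene Hba-a1 averaged 102 normalized counts in deleted libraries and 4.64 in controls, and the platelet gene Pf4 37.5 and 43.1. Of 6 myeloid markers tested 0 were above control and 1 fell, where 0.588% of all genes fell. The part of these cells in the PDGF values was not tested.

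The make-up of the ligand transcripts was set side by side without a test. As a share of the listed ligands per kb, Pdgfc made up 13.99% and 14.6% in infused deleted libraries, against 6.59%, 8.03% and 8.43% in their controls. Pdgfc made up 5.19% and 6.92% in gain libraries and 9.20%, 6.96% and 9.41% in gain controls. Both deleted libraries were above their controls, and both gain libraries were below theirs, the second by little. Pdgfd made up 56.3% to 58.6% in infused deleted libraries and 69.5% to 79.5% in their controls. In uninjured libraries Pdgfd made up 77.0% to 82.8% after deletion and 82.1% to 87.9% in controls.

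Of the receptors, Pdgfra (ENSMUSG00000029231, chromosome 5, 75152292 to 75198215, plus strand, GRCm38) encodes the alpha receptor, the kinase that marks cardiac fibroblasts. It held 20274 and 19585 normalized counts in gain libraries and 18317, 14217 and 22330.4 in gain controls. The gain libraries lay inside the range of the controls (log2 fold change 0.15, 95% interval -0.27 to 0.57, limma adjusted p = 0.703). In infused hearts it held 13349 and 11044 normalized counts in deleted libraries, against 26502, 18519 and 14013 in controls. Both deleted libraries were below all controls, of which the third came close, and the change did not pass (log2 fold change -0.65, 95% interval -1.26 to -0.034, limma adjusted p = 0.291). In uninjured hearts it held 51127, 53838 and 54376 normalized counts in deleted libraries and 49539.5, 54357 and 55763 in controls. The groups overlapped fully, and the interval was narrow (log2 fold change -0.0016, 95% interval -0.19 to 0.18, limma adjusted p = 0.995).

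Pdgfrb (ENSMUSG00000024620, chromosome 18, 61045150 to 61085061, plus strand, GRCm38), the beta receptor, held 21606 and 23612 normalized counts in gain libraries and 27522, 33432 and 31585 in gain controls. Both gain libraries were below all controls, and the change did not pass (log2 fold change -0.44, SE 0.119, 95% interval -0.72 to -0.17, limma adjusted p = 0.0912). In infused hearts Pdgfrb held 20941 and 27499 normalized counts in deleted libraries and 22514, 25342 and 23019.7 in controls. The deleted libraries lay on either side of the controls (log2 fold change 0.024, 95% interval -0.33 to 0.38, limma adjusted p = 0.950). In uninjured hearts the range was 18816 to 23723 normalized counts in deleted libraries and 20621 to 22968 in controls (log2 fold change -0.072, 95% interval -0.29 to 0.15, limma adjusted p = 0.716). Markers of mural cells, on which the beta receptor is known to be high, moved in that uninjured comparison. Of these markers 4 of 11 tested fell, where 1.96% of all genes did, and 8 lay below control without overlap, where 13.6% did. Their summed levels were 10433 to 11668 normalized counts in deleted libraries and 15748.5 to 17499 in controls. Among them Cspg4 was 3.44-fold lower (limma adjusted p = 0.00137). In gain the sums were 5460.0 to 6379.5 normalized counts in gain libraries and 4951 to 6119.7 in gain controls, and 1 of 10 tested, Des, rose, where 1.57% of all genes did. Only 3 of the 10 were above control, and the median log2 fold change was -0.26. Without overlap, 2 mural markers lay above control and 0 below, where 19.1% and 20.1% of all genes did. The part of mural cells in the level of Pdgfrb was not tested.

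Pdgfrl (ENSMUSG00000031595, chromosome 8, 40926212 to 40990785, plus strand, GRCm38), the receptor-like gene, held 6739 and 7149.9 normalized counts in gain libraries, against 11489, 14189 and 9804 in gain controls. Both gain libraries lay below all controls, and Pdgfrl fell (log2 fold change -0.75, SE 0.151, 95% interval -1.11 to -0.40, limma adjusted p = 0.0420). In infused hearts it held 11959 and 11393 normalized counts in deleted libraries and 8228, 9688 and 10877 in controls. The deleted libraries lay above all controls by a small margin (log2 fold change 0.29, 95% interval -0.028 to 0.61, limma adjusted p = 0.344). In uninjured hearts it held 4577, 5281 and 5431 normalized counts in deleted libraries and 4373, 4628 and 4312 in controls, with overlap (log2 fold change 0.20, limma adjusted p = 0.236).

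**Figure D2:**
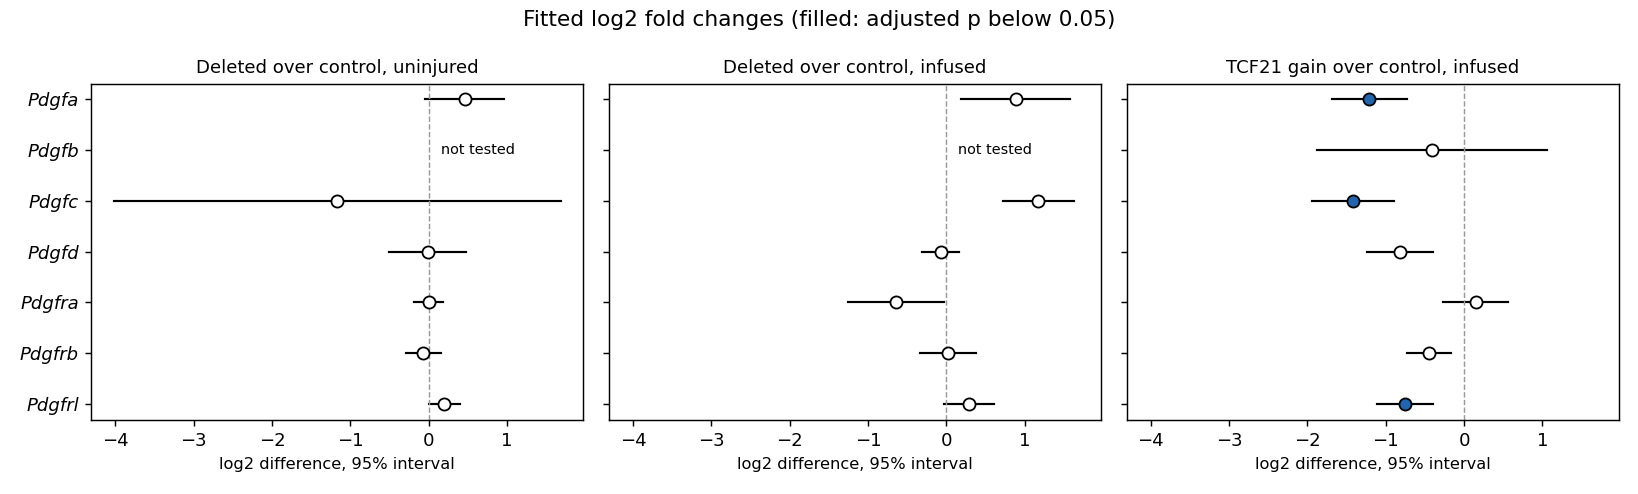
Log2 fold change of each PDGF gene with its 95% interval from limma, for deleted over control without injury, deleted over control with infusion and TCF21 gain over control with infusion. Filled points passed: Pdgfa at -1.21, Pdgfc at -1.42 and Pdgfrl at -0.75 in the gain comparison.

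Counted over the members, 5 of 7 lay below control without overlap in the gain comparison and 0 above. Of all genes tested there, 20.1% lay below, 19.1% above and 39.3% did not overlap in either direction. In infused loss 3 of 6 tested members lay above control and 1 below without overlap, where 17.3% of all genes lay above, 17.7% below and 35.0% in either direction. In uninjured loss 1 of 6 did, where 27.7% of all genes did, so that count is near the background. The calls came to 0 of 6 in infused loss by limma, where 0.912% of all genes were called (0.324% higher, 0.588% lower), and 3 of 6 had an unadjusted p below 0.05, as did 16.1% of all genes. They came to 0 of 6 in uninjured loss, where 3.58% of all genes were called (1.63% higher, 1.96% lower), and 1 of 6 had an unadjusted p below 0.05, as did 21.2% of all genes. The median log2 fold change of the members was -0.75 in gain, 0.16 in infused loss and -0.0089 in uninjured loss, beside 0.0066, 0.00017 and -0.012 over all genes tested.

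The gain calls rest on few libraries. With 1 library left out in turn, Pdgfa passed in 1 of 5 fits (adjusted p 0.0212 to 0.118), and Pdgfc (0.0291 to 0.103) and Pdgfrl (0.0131 to 0.194) each passed in 2 of 5. Each of the 3 was lost without gain library 1, gain library 2 or gain control 1, and Pdgfa was also lost without gain control 2. The log2 fold changes stayed below 0 in these fits, at -1.41 to -1.001 for Pdgfa, -1.54 to -1.35 for Pdgfc and -0.88 to -0.61 for Pdgfrl. Without the variance trend none of them passed (adjusted p 0.0831 for Pdgfa, 0.0623 for Pdgfc and 0.162 for Pdgfrl), and with all 6 groups in one fit Pdgfc did not (adjusted p = 0.523). Fibroblast markers were lower on average in the same comparison, with 10 of 10 below their control mean, 5 of them without overlap and 0 past the threshold (3 with an unadjusted p below 0.05, by limma), with summed levels of 3104240 to 3332648 normalized counts in gain libraries and 4411297 to 4689684 in gain controls. Of the 9 myeloid markers 8 were above control, 4 of them without overlap, with a median log2 fold change of 0.77, 0 past the threshold (3 with an unadjusted p below 0.05, by limma) and sums of 2344 to 4609 normalized counts in gain libraries and 2005 to 3247 in gain controls. Of 7 cardiomyocyte markers tested 1 rose, Actc1, at 311 ± 35.4 normalized counts in gain libraries and 130.05 ± 26.3 in gain controls (limma adjusted p = 0.0315). The list did not move with Actc1, with 3 of 7 above control and a median log2 fold change of -0.51. Without overlap, 2 cardiomyocyte markers lay above control and 3 below. Of 8 endothelial markers tested 1 fell, Tek, at 5315 ± 526 normalized counts in gain libraries and 9289 ± 1490.1 in gain controls (limma adjusted p = 0.0297). The endothelial list did not fall with Tek, with 4 of 8 above control and a median log2 fold change of 0.098. Without overlap, 2 endothelial markers lay above control and 1 below. Of all genes tested with gain, 20.1% lay below and 19.1% above control without overlap, 2.57% fell and 1.57% rose. An unadjusted p below 0.05 by limma was reached by 20.4%. The part of these cell types in the PDGF values was not tested.

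The effects of gain and loss under infusion were then set against each other, each within its own table, with no library in common. The arms also differ in Cre line, Tcf21-MerCreMer for loss and Pdgfra-creERT for gain, which cannot be told apart from the direction of the TCF21 change. Their infused controls, not put on a common scale, differed in level, with Tcf21 2.85 times and Pdgfa 1.98 times as high in gain controls. The difference of gain minus loss was -2.09 on the log2 scale for Pdgfa (SE 0.381, 95% interval -2.94 to -1.24, limma adjusted p = 0.0210), and -2.59 for Pdgfc (SE 0.272, 95% interval -3.20 to -1.99, limma adjusted p = 0.00118). For Pdgfrl it was -1.04 (SE 0.220, 95% interval -1.53 to -0.55, limma adjusted p = 0.0363). Over the 14319 genes tested, 1.22% were called lower, 1.71% higher and 2.93% in either direction. With 1 library left out, Pdgfc passed in 10 of 10 fits (adjusted p 0.00234 to 0.00792), Pdgfa in 6 of 10 (0.0187 to 0.0910) and Pdgfrl in 3 of 10 (0.0188 to 0.135). Pdgfa was lost without gain control 1, gain control 2, gain library 1 or infused deleted library 2. Pdgfrl was lost without either gain library, either infused deleted library, gain control 1, gain control 2 or infused loss control 2. The other members did not pass, with a difference of -0.74 for Pdgfd (limma adjusted p = 0.126), 0.80 for Pdgfra (0.306) and -0.47 for Pdgfrb (0.264). With 1 library left out, the difference of Pdgfd passed in 1 of 10 fits (limma adjusted p 0.0137 to 0.281), at -1.06 without gain library 1 and -0.43 without gain library 2 (limma adjusted p = 0.263).

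**Figure D3:**
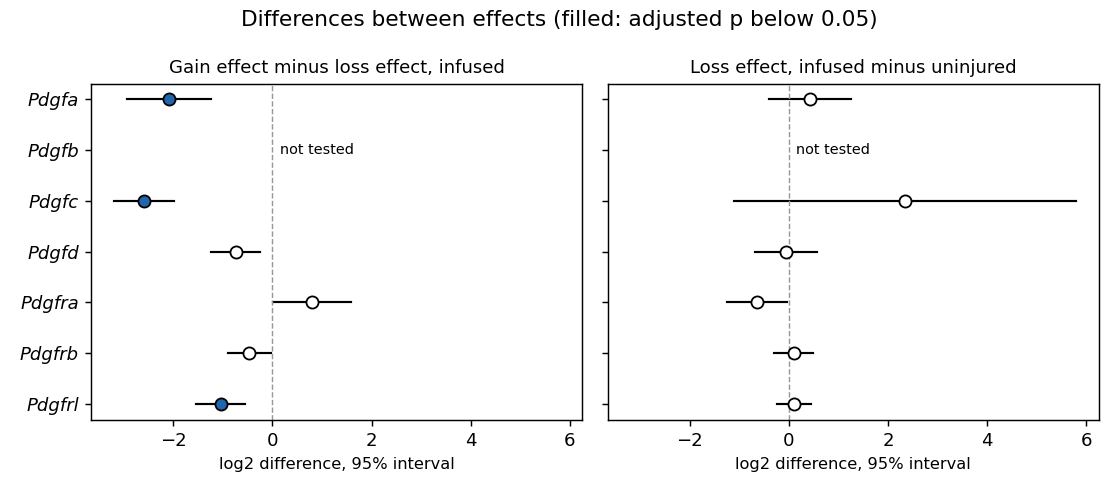
Differences between effects on the log2 scale with 95% intervals, for each PDGF gene: gain effect minus loss effect under infusion on the left, and loss effect with infusion minus without on the right. Pdgfa at -2.09, Pdgfc at -2.59 and Pdgfrl at -1.04 passed on the left, and none passed on the right.

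Whether loss acted otherwise in infused than in uninjured hearts was tested in the same way. None of the 6 members passed, where 0.149% of 14130 genes did (0.0495% higher, 0.0991% lower). By limma 1 of 6 members, Pdgfra, had an unadjusted p below 0.05, as did 11.6% of all genes, with a difference of -0.65 (95% interval -1.26 to -0.034, adjusted p = 0.403). The difference was 0.43 for Pdgfa (95% interval -0.39 to 1.25) and 2.34 for Pdgfc (95% interval -1.11 to 5.80). The wide interval of Pdgfc goes with its low level in uninjured libraries.

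The balance of the receptors within a library does not depend on how libraries were scaled. Pdgfra over Pdgfrb, both per kb, was 0.745 and 0.658 in gain libraries, against 0.528, 0.337 and 0.561 in gain controls. Both gain libraries had the higher ratio, with a log2 difference of 0.59 at the smallest p that 2 against 3 libraries allow (exact permutation test, two-sided, p = 0.2). In infused deleted libraries the ratio was 0.506 and 0.319, against 0.934, 0.580 and 0.483 in their controls, with overlap (log2 difference -0.67, exact permutation p = 0.4). In uninjured libraries it was 2.16, 1.80 and 2.15 after deletion and 1.91, 1.96 and 1.93 in controls (log2 difference 0.070, exact permutation p = 0.4, where 3 against 3 libraries cannot go below 0.1). All uninjured libraries had more Pdgfra than Pdgfrb per kb and all infused libraries less. Pdgfrl over Pdgfra was 0.341 to 0.441 per kb in the 6 uninjured libraries and 1.37 to 4.55 in the 10 infused ones. Infused and uninjured libraries stand in separate tables, so infusion and table cannot be told apart.

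**Figure D4:**
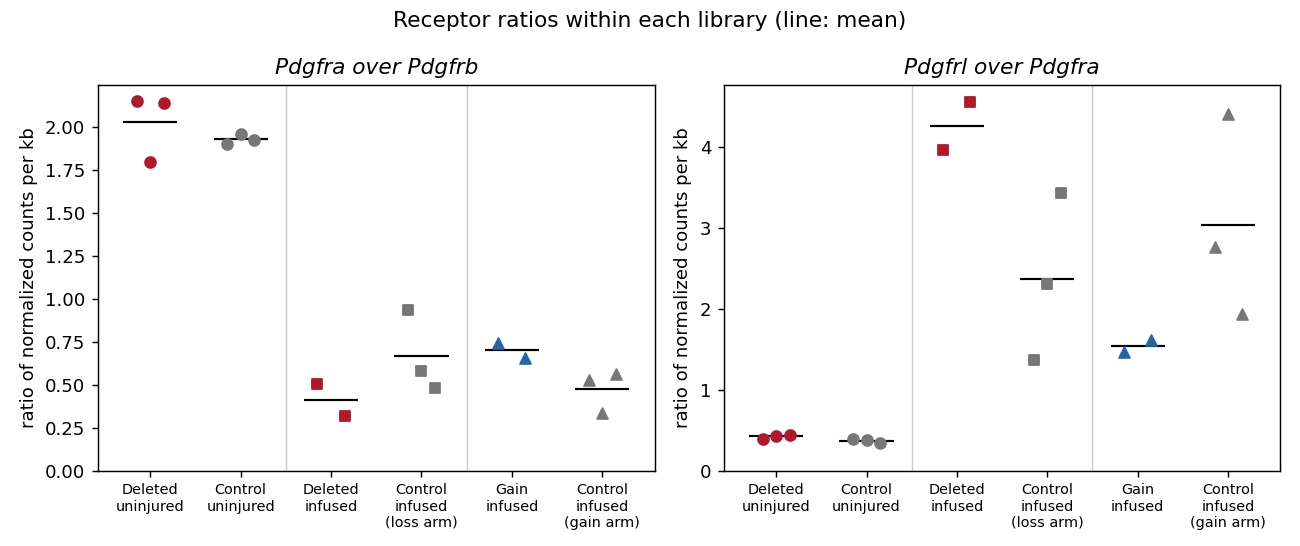
Ratio of Pdgfra to Pdgfrb (left) and of Pdgfrl to Pdgfra (right), in normalized counts per kb, in each of the 16 libraries, with group means as lines. Uninjured libraries lie at 1.80 to 2.16 on the left and at 0.341 to 0.441 on the right, and infused libraries at 0.319 to 0.934 and at 1.37 to 4.55.

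The other genes of the pathway were taken from 5 lists. Calls in these lists rest on the main fit only. Without the variance trend, the number of genes called with gain went from 637 to 25. Over all genes tested, an unadjusted p below 0.05 was reached by 20.4% in gain, 16.1% in infused loss and 21.2% in uninjured loss, the background for the counts of each list. Proteases that process the ligands were not called: 0 of 7 tested members passed with gain and 0 of 7 with infused loss, by limma, and 0 of 6 with uninjured loss (1, 2 and 1 with an unadjusted p below 0.05, in that order). Plat, the tissue plasminogen activator, which is known to activate PDGF-C, held 21715 ± 1051 normalized counts in gain libraries and 19680.2 ± 1263 in gain controls (SD, n = 2 and 3, limma adjusted p = 0.483). Adaptors and effectors of the receptors, among them kinases of the Src family and subunits of phosphoinositide 3-kinase, had 0 of 27 members called in each of the 3 comparisons, with 6 at an unadjusted p below 0.05 in gain, 3 in infused loss and 11 in uninjured loss. The counts in gain and infused loss were near or below those shares, and the count in uninjured loss was above its share. In uninjured loss 8 of the 27 lay below control without overlap and 3 above, where 13.6% and 14.1% of all genes did. The Src family kinase Fyn came closest, at 6443 ± 423 normalized counts in uninjured deleted libraries and 8049.6 ± 162 in controls (SD, n = 3 and 3, limma adjusted p = 0.0529).

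Of phosphatases, turnover and feedback genes, 1 of 15 tested members rose with gain, 0 of 14 passed with infused loss (3 at an unadjusted p below 0.05) and 1 of 15 fell with uninjured loss. Over all genes, 1.57% rose with gain and 1.96% fell with uninjured loss. Spred1, an inhibitor of Ras signalling, rose 1.59-fold with gain (9929 ± 207 normalized counts in gain libraries against 6241 ± 507 in gain controls, SD, n = 2 and 3, limma adjusted p = 0.0147). Ptprj, a phosphatase that acts on PDGF receptors, fell 1.46-fold in uninjured deleted libraries (838 ± 59.8 normalized counts, against 1222 ± 12.7 in controls, SD, n = 3 and 3, limma adjusted p = 0.0284). In infused deleted libraries Ptprj was at 509.6 ± 44.3 normalized counts, against 769 ± 81.4 in their controls (limma adjusted p = 0.128). The median log2 fold change of this list was 0.18 in gain, -0.15 in infused loss and -0.061 in uninjured loss.

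Early genes that PDGF is known to induce had a median log2 fold change of -0.63 in gain, -0.46 in infused loss and -0.057 in uninjured loss. Such genes also respond to cell dissociation. With gain 2 of 18 tested members rose and 2 fell, where 1.57% and 2.57% of all genes did. Those that rose were the zinc finger factor Egr3 (1709 ± 87.1 normalized counts in gain libraries against 656 ± 99.8 in gain controls, limma adjusted p = 0.00686) and Srf, the serum response factor (1019 ± 0.113 in gain libraries against 691 ± 28.6 in gain controls, limma adjusted p = 0.0315). Those that fell were Fosb (3571 ± 661 normalized counts in gain libraries against 8474 ± 2587 in gain controls, limma adjusted p = 0.0443) and Ier3 (3595 ± 202 in gain libraries against 6100.4 ± 871 in gain controls, limma adjusted p = 0.0246). With infused loss 0 of 18 passed by limma. An unadjusted p below 0.05 was reached by 13 of 18 in gain, 10 of 18 in infused loss and 5 of 17 in uninjured loss. Of all genes 20.4%, 16.1% and 21.2% reached it, in that order. With uninjured loss 1 of 17 fell, the nuclear receptor Nr4a1 (17950.0 ± 2476 normalized counts in deleted libraries against 32648 ± 5898 in controls, limma adjusted p = 0.0227). There 1.96% of all genes fell.

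Relatives of the family, among them the VEGF ligands, their receptors and the Kit and Flt3 systems, had 0 of 14 tested members called with gain and 0 of 13 with infused loss by limma (3 and 2 at an unadjusted p below 0.05). With uninjured loss 1 of 14 fell, the semaphorin and VEGF co-receptor Nrp2, at 358 ± 22.2 normalized counts in deleted libraries and 678 ± 67.3 in controls (SD, n = 3 and 3, limma adjusted p = 0.0137). There 1.96% of all genes fell.

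**Figure D5:**
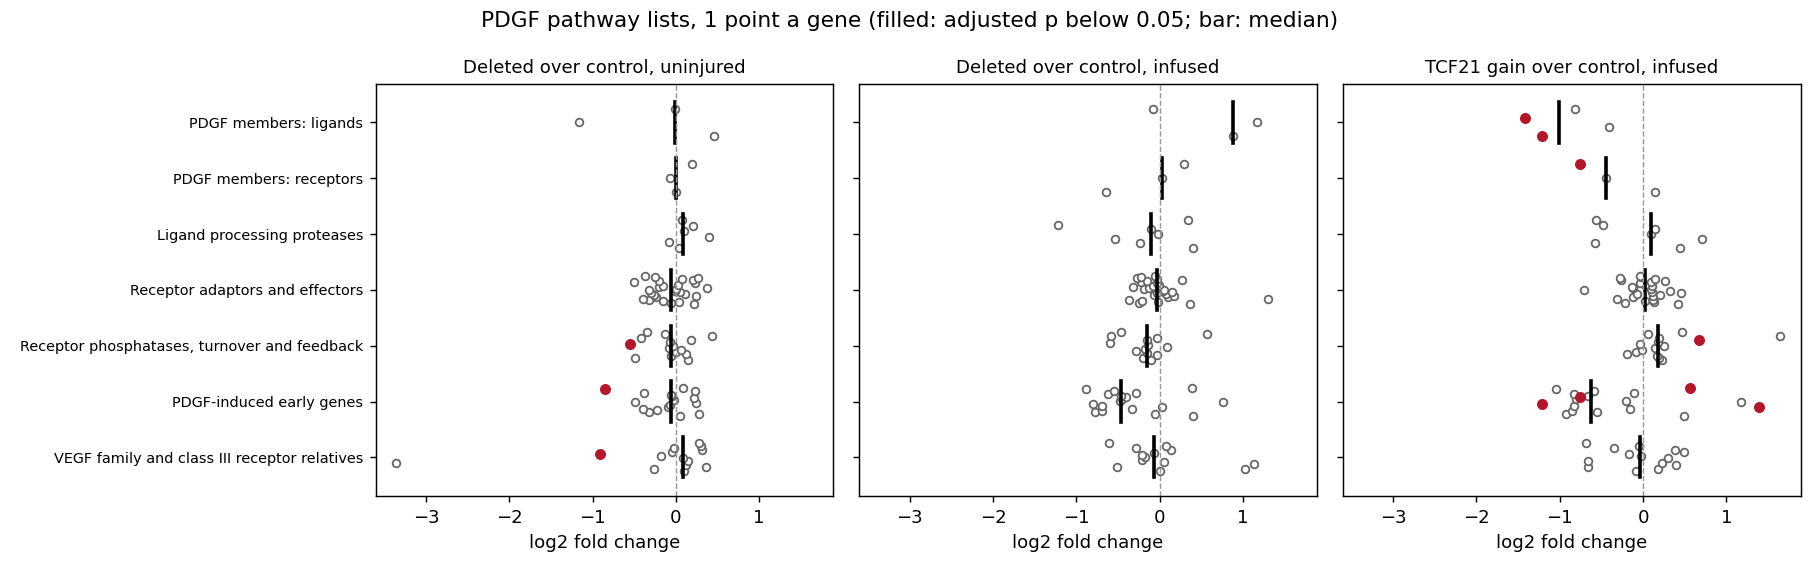
Log2 fold change of each gene (1 point) of the PDGF members and of 5 related lists, in the 3 comparisons, with the list median as a bar. Filled points passed the test: Pdgfa, Pdgfc and Pdgfrl among the members, Spred1 and 4 early genes with gain, and Ptprj, Nr4a1 and Nrp2 in uninjured loss.

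Genes with the pattern most like a member were sought among 11210 genes, as the smallest root mean square difference of log2 values over the 16 libraries after centring each table on its controls. Closest to Pdgfra were Sparcl1 (0.12), Crispld2 (0.14) and Ptpru (0.14), where the median gene was at 0.38. Closest to Pdgfrl were Wls (0.096), Slc44a2 (0.11) and Dtd1 (0.12), with a median of 0.38. Closest to Pdgfrb were Pcdhgb6 (0.10), Spns1 (0.11) and Wwp2 (0.11), with a median of 0.29. A gene that stayed at its control mean in all libraries would lie at 0.31 from Pdgfra, 0.32 from Pdgfrl and 0.20 from Pdgfrb. For the ligands, Cpne8 (0.25) was closest to Pdgfa and Omd (0.18) and Ogn (0.18) were closest to Pdgfd, but by the largest single difference 0 of their 3 nearest genes were shared. For each receptor 2 of 3 were shared.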

How the data were processed

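Libraries were made from sorted cells with the MiRNeasy micro kit and SMART-seq V4, per the labels' protocols. The submitters' processing notes name kallisto, DESeq2 and GRCm38, without versions. The tables hold a signal that the authors deposited as normalized counts, scaled within each table; neither the role of each tool nor the annotation is given in the sources used here. They sum to 27814940 to 40970391 per library. Values between 0.5 and 6 lay within 0.03 of whole steps in 35.6% to 67.5% of cases, so reads were not recovered, depth is unknown and no count model was used. The test was limma 3.58.1 (R 4.3.3; variance trend, two-sided, Benjamini-Hochberg), fitted to log2(value + 1) within each comparison after leaving out genes whose mean was below 10; fold changes on this scale understate changes of low genes. Receptor ratios used exact permutation tests (SciPy 1.17.1). The fit was tested on simulated data. Members and lists were chosen with earlier results of these data known. All 7 members are named; of other lists, up to 4 genes past the threshold a comparison, otherwise up to 2 with the smallest p, and Plat and Ptprj with infusion were added after their values were seen. Alternatives varied pseudocount, filter, scaling, variance trend, libraries fitted, replicate block and left out each library.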

Additional observations from a re-analysis of the deposited data

Results flagged for a closer look

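Among the markers named beside the PDGF genes, the loss effect differed between infused and uninjured hearts for Cspg4 and Cd74 by the test of the difference itself. For the mural marker Cspg4 the log2 effect of loss was 1.62 higher with infusion than without (limma adjusted p = 0.0243), the level being 795 ± 56.0 normalized counts in deleted and 898 ± 158 in control libraries with infusion (SD, n = 2 and 3). Without injury Cspg4 held 226 ± 40.6 normalized counts in deleted and 771 ± 62.5 in control libraries (SD, n = 3 and 3). For the MHC class II chaperone Cd74, a myeloid marker, the difference was -2.53 (limma adjusted p = 0.0389), at 50.8 ± 15.998 normalized counts in deleted and 256 ± 87.1 in control libraries with infusion, and 750.2 ± 205 in deleted and 622 ± 47.8 in control libraries without.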

How the results depend on the processing

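Of 490 refits of a member in a comparison, 435 kept their direction and side of the threshold, 26 lost a call, 11 gained one and 18 changed sign. Direction turned only for members that had not passed. Calls of genes outside the members, the flagged Cspg4 and Cd74 included, were not followed through the refits. After rescaling to equal upper quartiles, uninjured Pdgfd was 0.0049 and Pdgfra 0.020. With 1 library left out, uninjured log2 fold changes ran from -2.47 to 0.41 for Pdgfc, -0.28 to 0.19 for Pdgfd and -0.052 to 0.033 for Pdgfra, infused Pdgfrb from -0.17 to 0.22, and with gain Pdgfb from -0.96 to 0.14 and Pdgfra from -0.021 to 0.30. The infused minus uninjured difference ran from -0.27 to 0.21 for Pdgfd, -0.10 to 0.29 for Pdgfrb and -0.011 to 0.19 for Pdgfrl. Genes called numbered 557 in uninjured loss, 135 in infused loss, 637 in gain, 21 for the loss difference and 420 for gain minus loss. Without the variance trend these were 94, 72 and 25 in the first 3, and 263 for gain minus loss. With all 6 groups in one fit they were 1106 in uninjured and 348 in infused loss. With 1 library left out they ran from 88 to 891, 32 to 175, 124 to 821, 12 to 57 and 155 to 436, a lone library being assumed to vary like the others. The cause was not tested. Deviations of same-numbered libraries had r of -0.054 to 0.025 in uninjured loss, 0.18 and -0.042 in infused loss, and 0.095 and 0.062 in gain. In uninjured loss these were no higher than r of libraries with different numbers (-0.036 to 0.078). The infused deleted and gain groups hold 2 libraries each, whose deviations mirror each other. There r cannot decide whether the numbers pair the libraries. In both of these comparisons control 3 has no partner of the same number, so the replicate block fitted it exactly. The block estimates there equal those without control 3, such as -0.87 for infused Pdgfra, so the block calls do not draw on all libraries. With the replicate block the counts were 227, 1462, 1842, 79 and 901, and infused Pdgfra (-0.87, adjusted p = 0.00155), Pdgfc (1.25, 0.00753) and Pdgfa (1.02, 0.0431) passed, as did Pdgfd (-0.84, 0.0201) and Pdgfrb (-0.43, 0.0126) with gain, and Pdgfra in the loss difference (-0.87, 0.0468) and in gain minus loss (1.17, 0.00726). The log2 receptor ratio difference ran from 0.026 to 0.16, -1.005 to -0.34 and 0.36 to 0.73 in the same first 3 comparisons with 1 library left out, and pseudocounts of 0.1 and 8 kept its direction. Depth is unknown, so low values such as those of Pdgfb carry no counting interval.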

Other observations

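Control levels across the separately normalized tables, which were not put on a common scale or tested, are given as values. Pdgfra averaged 19678 normalized counts in infused controls of the loss arm and 18288 in gain controls, beside 53220 in uninjured controls, so it was 0.370 and 0.344 times the uninjured level. Pdgfc averaged 123 and 193.6 in the infused controls and 19.3 in uninjured controls, or 6.37 and 10.04 times as much. Pdgfrl was 2.16 and 2.67 times, Pdgfa 1.14 and 2.25 times, Pdgfrb 1.08 and 1.41 times, and Pdgfd 0.756 and 0.951 times, the uninjured level. Between both infused control groups, gain controls over loss controls, the ratio was 0.929 for Pdgfra, 1.26 for Pdgfd and 1.98 for Pdgfa, and it was 5.96 for Pdgfb, whose levels are close to 0. Infusion, table and, for the gain arm, the Cre line change together in these values and cannot be told apart.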
